A study of Mus musculus with 21 samples.

Results

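The genes of the mitochondrial ribosome were followed in the RNA sequencing of mouse hematopoietic stem cells (HSCs). Members were all rows of the count table whose symbol is Mrpl or Mrps followed by a number, and this rule gave 78 of the 21000 genes. By symbol, 49 belong to the large subunit (Mrpl) and 29 to the small subunit (Mrps). The rule uses names only and no measured value. HSCs were CD150+CD48-Flt3- LSK cells of wild-type mice, LSK meaning lineage-negative, Sca-1-positive and c-Kit-positive, and each library was made from 3000–3500 cells. PBS-treated HSCs came from 10-week-old mice that received PBS once or 3 times, and 5-FU-treated HSCs came from 10-week-old mice that received 5-fluorouracil (5-FU) at 150 mg/kg intraperitoneally once or 3 times, with 21 days between administrations. Cells were isolated on day 6, or, for 5-FU only, also on day 21. Old HSCs came from untreated mice aged 2 years. Each of the 7 groups held 3 libraries from independent experiments, 21 in all. The day 21 groups have no PBS group of their own day and were compared with PBS on day 6. Only for cells taken early after 5-FU was the sorting gate widened to c-Kit-dim cells and the Mac-1 antibody left out, so treatment and gate cannot be told apart on day 6.

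Mitochondria carry their own ribosome, which translates the few proteins encoded by mitochondrial DNA, all of them subunits of the respiratory chain complexes and ATP synthase. The mitoribosome combines RNA transcribed in the mitochondrion with proteins that are encoded in the nucleus, made in the cytosol and imported. HSCs are mostly quiescent, and 5-FU, a pyrimidine analogue that kills dividing cells, drives the surviving HSCs into the cell cycle. The symbols follow an older nomenclature that does not match structure in every case. In the structures of the mammalian mitoribosome, the proteins of Mrps18a and Mrps30 lie in the large subunit, and the product of Mrps36 is now known as a subunit of the 2-oxoglutarate dehydrogenase complex. These genes are kept here under their symbols.

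Total counts per library ranged from 22184885 to 38649033, and a signal of 3 counts, taken as the floor of a library, corresponded to between 0.085 and 0.128 CPM (counts relative to the size of the library, scaled by TMM). Every member was well above this floor: the lowest count of any member in any library was 116, and all 78 members passed the expression filter in every comparison. Together they held between 0.260% and 0.369% of all counts in a library. Levels were uneven. The mean over all libraries ranged from 6.13 CPM for Mrpl47 to 316 CPM for Mrps17, with a median of 18.7 CPM, and the 18 members above 50 CPM made up 65.3% of the summed level. Per kilobase of the longest annotated coding transcript, Mrpl42 was highest at 191 CPM per kb (126 to 285 across libraries). Mrps12, Mrpl55, Mrps18b and Mrps23 followed at 135, 126, 121 and 107 CPM per kb, and the ranges of these 4 over libraries overlapped. The lowest were Mrpl47 at 1.82, Mrps35 at 3.18, Mrpl17 at 3.54, and Mrpl32 and Mrpl48 at 3.79 CPM per kb. Their transcripts used for the length were long, at 3364, 4162, 7300, 3013 and 4285 bp, against a median of 1327.5 bp over members. Which transcripts HSCs express was not examined, so the order per kb depends on this choice. Without the correction for length, 3 of the 5 highest and 1 of the 5 lowest were still among the 5 highest and lowest. Replicates were close: the median coefficient of variation of a member within a group lay between 4.92% (5-FU once, day 6) and 9.91% (old).

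On day 6 after 1 administration of 5-FU, mitochondrial ribosomal protein mRNAs were higher. The summed level of the 78 genes was 2826 ± 34.2 CPM (SD, n = 3) in PBS-treated HSCs and 3631 ± 87.7 CPM in 5-FU-treated HSCs, with every 5-FU library above every PBS library. In edgeR's quasi-likelihood test with Benjamini-Hochberg adjustment over 12759 genes, 37 of 78 members rose and 0 fell, where 11.5% of all genes tested rose and 10.6% fell. The log2 fold change was above 0 for 75 members, with a median of 0.32 against 0.00 for all genes tested. Rises were found in both subunits: 21 of 49 large subunit genes rose with a median of 0.31, and 16 of 29 small subunit genes rose with a median of 0.33. Among the 18 members above 50 CPM, 15 rose with a median of 0.41, and among the other 60, 22 rose with a median of 0.28. This count was sensitive to single libraries. It was 21, 17 and 15 without replicate 1, 2 or 3 of the 5-FU group and 17, 18 and 22 without replicate 1, 2 or 3 of the PBS group, with 0 falls in each case, and 13 of the 37 genes rose in each alternative analysis tried.

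**Figure D1:**
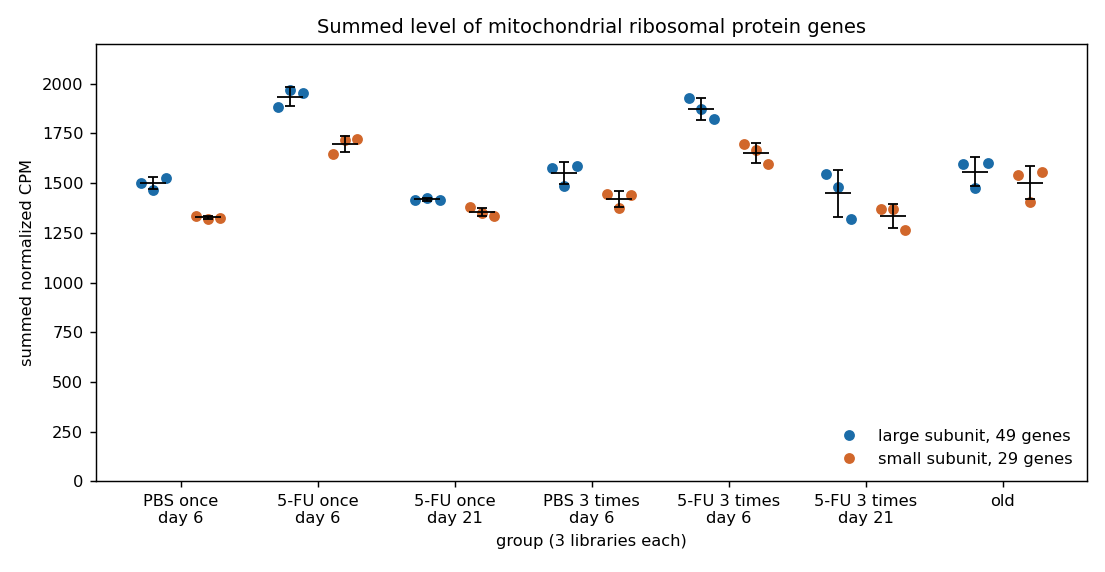
Summed normalized CPM (vertical axis, from 0) of the 49 large subunit genes and the 29 small subunit genes in each library, by group. Points are libraries, horizontal marks are means and bars are SD of 3 libraries. In both 5-FU groups of day 6 the large subunit sums lie between 1821 and 1968 CPM and the small subunit sums between 1598 and 1721 CPM, above those of all other groups.

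Mrpl42, a large subunit protein without a bacterial counterpart, changed most. Its level was 105, 116 and 99.5 CPM in the PBS libraries and 170, 190 and 175 CPM in the 5-FU libraries. All 5-FU libraries were far above the PBS libraries, a rise of 0.73 on the log2 scale (SE 0.08, 1.66-fold, adjusted p = 0.00243). Mrpl58 encodes a peptidyl-tRNA hydrolase built into the large subunit, which releases nascent chains from stalled mitoribosomes. It was at 53.8, 55.7 and 65.2 CPM after PBS and 89.3, 108 and 92.2 CPM after 5-FU, without overlap (log2 fold change 0.72, SE 0.11, adjusted p = 0.0058). Mrps36, the 2-oxoglutarate dehydrogenase subunit, was at 22.0, 23.2 and 28.5 CPM after PBS and 39.0, 37.6 and 38.6 CPM after 5-FU (0.63, SE 0.11, adjusted p = 0.0088). Mrps21, a small subunit protein of bacterial origin, went from 39.7, 29.3 and 37.9 CPM to 55.6, 55.1 and 55.8 CPM (0.63, SE 0.12, adjusted p = 0.0115). In both genes the 5-FU libraries lay close together and above the PBS libraries. Of the other genes that the rule names, Mrps6 rose by 0.60, Mrps23 by 0.58, Mrpl55 by 0.56 and Mrpl21 by 0.55 on the log2 scale, with adjusted p from 0.00401 for Mrpl21 to 0.0223 for Mrps23. Mrps6 and Mrpl21 are homologues of bacterial ribosomal proteins, while Mrps23 and Mrpl55 arose in mitochondria.

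The rises covered several functional sites of the ribosome. At the stalk, where elongation factors bind, Mrpl12, which has also been described to bind the mitochondrial RNA polymerase, rose from 18.7 ± 0.810 to 24.3 ± 0.694 CPM (SD, n = 3; log2 fold change 0.37, adjusted p = 0.0188). Of its neighbours at the stalk base, Mrpl11 rose (0.41, adjusted p = 0.0344) and Mrpl10 did not pass the test (0.24, adjusted p = 0.106). Close to the peptidyl transferase centre, Mrpl2 rose 1.40-fold (adjusted p = 0.0119), and so did Mrpl3, 1.31-fold (adjusted p = 0.0368). At the decoding site, Mrps12 rose from 103 ± 4.67 to 140 ± 9.21 CPM (adjusted p = 0.0096). Of the Mrps18 paralogues, Mrps18b rose (0.38, adjusted p = 0.0102), whereas Mrps18a and Mrps18c did not pass, at 0.29 (adjusted p = 0.0628) and 0.21 (adjusted p = 0.229). Mrps22, Mrps7 and Mrpl41 also rose, by 0.45, 0.33 and 0.40 on the log2 scale. The remaining genes of this list did not pass: Mrps34 was at 0.27, Mrps16 and Mrpl36 both at 0.24, Mrps5 at 0.16, Mrps2 at 0.05 and Mrpl44, an RNase III-like protein, at −0.04, with adjusted p between 0.0819 and 0.801. Human disease variants that impair respiration are known in MRPL3, MRPL12, MRPL44, MRPS2, MRPS7, MRPS16, MRPS22 and MRPS34.

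The member with the largest value below 0 was Mrps25, a small subunit protein, chosen here after its values were seen. Its level was 48.3, 50.4 and 40.9 CPM after PBS and 36.7, 33.6 and 41.8 CPM after 5-FU, so the groups overlapped (−0.33, SE 0.11, adjusted p = 0.08). Of the exonic bases of Mrps25, 69.8% lie opposite exons of Nr2c2 on the other strand. Nr2c2 fell in this comparison (−0.65, adjusted p = 0.00708). The kit used does not mark the strand, so reads of the overlap cannot be told apart.

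After 3 administrations, fewer genes passed the test. The summed level was 2972 ± 95.2 CPM after PBS and 3526 ± 102 CPM after 5-FU on day 6, again without overlap. Of 78 members, 10 rose and 0 fell, where 9.84% of 12729 genes rose and 8.3% fell, so the share called (12.8%) was close to that of all genes. The log2 fold change was above 0 for 69 members, with a median of 0.15 against −0.01 for all genes tested. With library size alone in place of TMM, the all-gene median moved to −0.11, the members' median to 0.05, 49 members were above 0 and 2 rose. Relative to the all-gene median, the members stood at 0.16 under both scalings. The count was 1 without replicate 2 of the 5-FU group and 3 to 6 without any other single library (3 and 6 without replicate 1 or 3 of the 5-FU group, and 4, 3 and 3 without replicate 1, 2 or 3 of the PBS group).

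Mrps22, a mitochondrion-specific small subunit protein of low abundance, had the largest rise after 3 administrations. It was at 7.59, 7.48 and 7.11 CPM after PBS and 12.2, 12.7 and 10.5 CPM after 5-FU (log2 fold change 0.65, SE 0.13, adjusted p = 0.0164). Mrpl42 went from 123, 107 and 107 CPM to 188, 172 and 165 CPM (0.62, SE 0.09, adjusted p = 0.00661), and it was the only one of the 10 that rose in each alternative analysis. Mrpl58 went from 68.0, 55.4 and 55.2 CPM to 86.2, 89.1 and 79.0 CPM (0.49, SE 0.11, adjusted p = 0.0234). In each of these genes the lowest 5-FU library was above the highest PBS library. Mrpl55, Mrps36, Mrpl15, Mrpl21 and Mrpl2 rose by 0.45, 0.45, 0.44, 0.39 and 0.33, and the last of the 10 were Mrps21 and Mrps23, both at 0.33. Of the stalk proteins, Mrpl12 was at 0.15, Mrpl11 at 0.12 and Mrpl10 at 0.08, and none passed the test. Mrpl3 (0.38, adjusted p = 0.0646), Mrps18b (0.29, adjusted p = 0.0796) and Mrps12 (0.15, adjusted p = 0.342) did not pass either. Mrps25 was at 0.12 (adjusted p = 0.604) and Nr2c2 at 0.01. The other listed genes (Mrps18a, Mrpl36, Mrps2, Mrps7, Mrps18c, Mrps16, Mrps34, Mrps5, Mrpl44 and Mrpl41) lay between 0.19 for Mrps18a and −0.08 for Mrpl41, with adjusted p of at least 0.266.

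**Figure D2:**
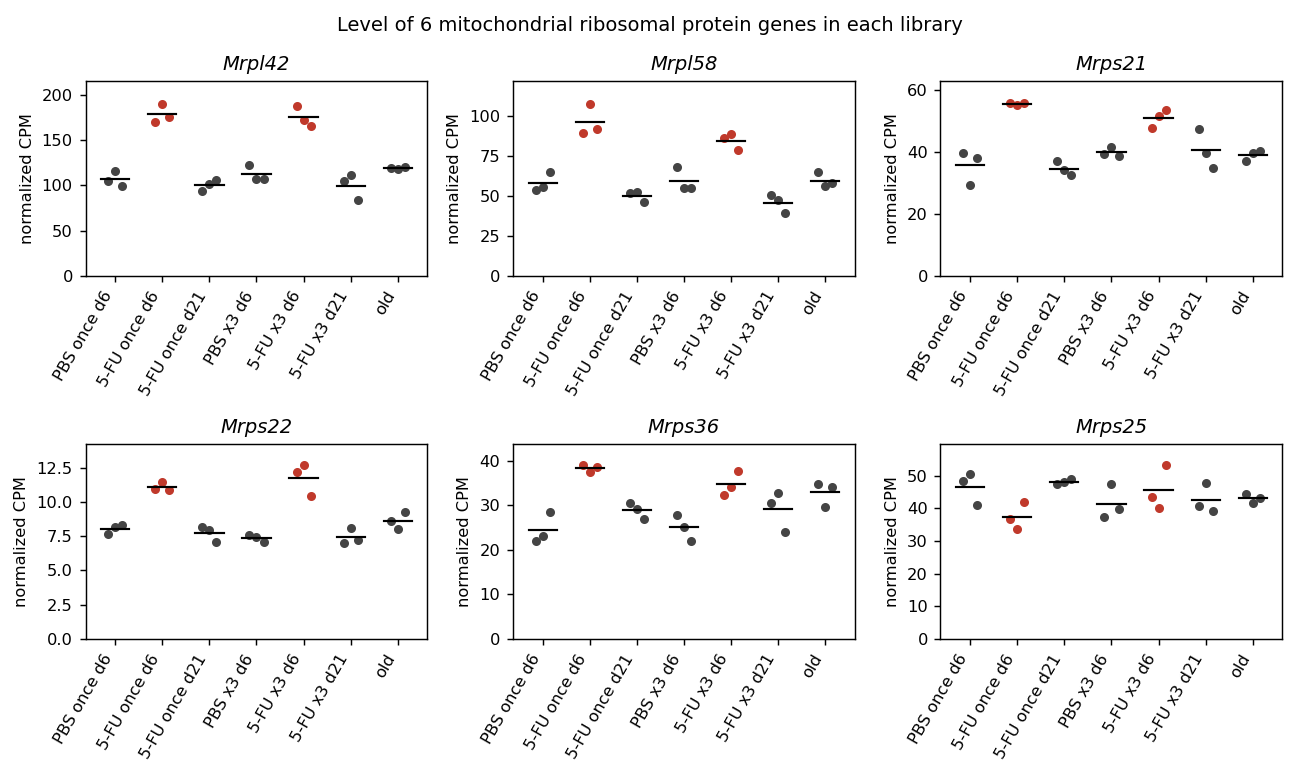
Normalized CPM (vertical axes, from 0) of Mrpl42, Mrpl58, Mrps21, Mrps22, Mrps36 and Mrps25 in each library, by group (d6, day 6; d21, day 21; x3, 3 administrations). Points are libraries, with the 5-FU groups of day 6 in red, and lines are means of 3 libraries. In Mrpl42 the red points lie between 165 and 190 CPM and all others at or below 123 CPM. In Mrps25 the 5-FU groups of day 6 overlap their PBS groups.

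The 10 genes that rose after 3 administrations also rose after 1, which is 27.0% of the 37 and 100% of the 10. These comparisons share no library. Across the 78 members, 68 had the same sign in both, and the log2 fold changes had a Pearson r of 0.625 and a Spearman rho of 0.632. This is a description across genes, which are not independent replicates. The same overlap and correlations were not computed over all genes tested, so this recurrence is not shown to be particular to the members. Whether the responses to 1 and to 3 administrations differed was tested with an interaction term. No member passed it with edgeR (0 of 78, where 0.34% of 13227 genes were higher and 0.31% lower); 10 had an unadjusted p under 0.05, and DESeq2 called 1 member, as lower. The difference (3 administrations minus 1) was below 0 for 67 of 78 members, with a median of −0.14. The members with the smallest p were Mrpl41 (−0.47, SE 0.15, adjusted p = 0.151) and Mrps33 (−0.37, SE 0.12, adjusted p = 0.159). A smaller response after 3 administrations was thus not shown for any single gene. The column names of the day 6 libraries after 1 administration carry a suffix of unstated meaning, which those after 3 administrations lack. The number of administrations and whatever the suffix marks cannot be told apart in this difference.

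**Figure D3:**
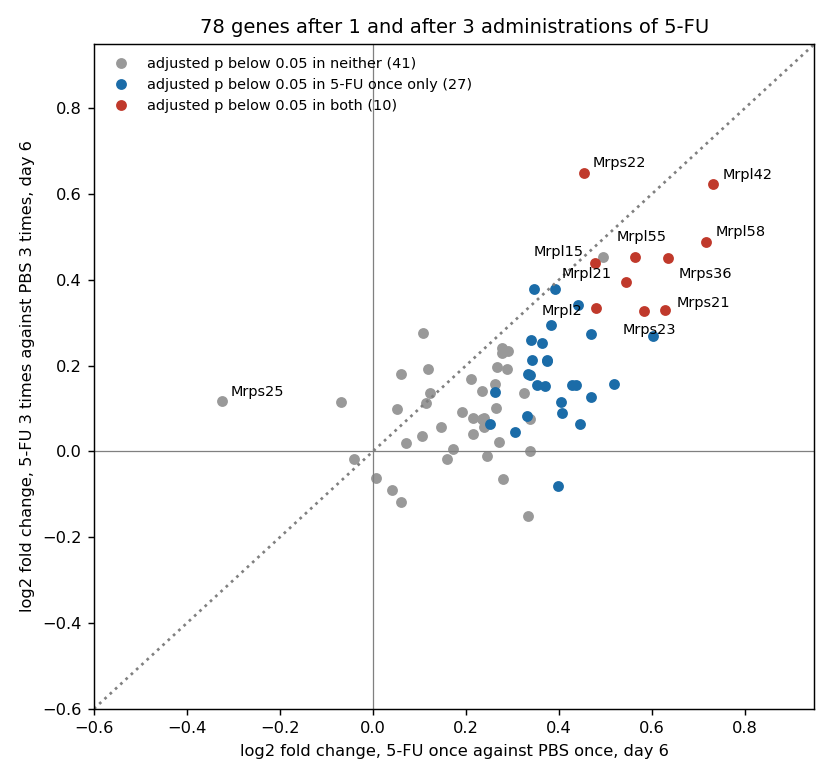
Log2 fold change of each of the 78 members for 5-FU against PBS on day 6 after 1 administration (horizontal) and after 3 administrations (vertical). Colours give the comparisons with an adjusted p below 0.05, the 10 genes called in both and Mrps25 are named, and the dotted line marks equal change. Most points lie right of 0 and below the dotted line.

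By day 21 the levels were near those of the controls. The summed level was 2773 ± 19.6 CPM after 1 administration and 2784 ± 175 CPM after 3, against 2826 and 2972 CPM in the PBS groups of day 6. No member passed edgeR's test against PBS once (0 of 78, with 4 at an unadjusted p under 0.05 and 1 called higher by DESeq2), where 0.0712% of all genes were higher and 0.15% lower. Against PBS 3 times, 0 of 78 passed with edgeR (5 at an unadjusted p under 0.05, and 2 called lower by DESeq2), where 0.0396% of all genes were higher and 0.00792% lower. The medians were −0.06 and −0.03, and both depended on single libraries. The first was −0.04 without replicate 3 of PBS once, and −0.09 without replicate 1 of the day 21 group. The second was 0.02 without replicate 3 and −0.08 without replicate 1 of the day 21 group, and −0.06 and 0.0038 without replicates 2 and 3 of PBS 3 times. It was −0.05 without replicate 2 of the day 21 group. With library size alone the first was −0.13, with the all-gene median at −0.08. Mrps2 was among the genes with an unadjusted p under 0.05 in both, at −0.25 and −0.27 (adjusted p = 0.32 and 0.248). The column names of PBS once carry a suffix, of unstated meaning, that those of 5-FU once on day 21 lack. Between these groups, treatment, day and whatever the suffix marks cannot be told apart.

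Between day 6 and day 21 after 5-FU, the calls were nearly all falls. After 1 administration 41 of 78 fell and 1 rose, where 13.7% of all genes fell and 12.3% rose, and the median was −0.36. The day 6 libraries of this comparison carry a suffix, of unstated meaning, in their column names that the day 21 libraries lack. The day and whatever the suffix marks cannot be told apart. The wider sorting gate without the Mac-1 antibody was also used only early after 5-FU. Day and gate therefore cannot be told apart after 1 or after 3 administrations. Both subunits took part, with 24 of 49 large and 17 of 29 small subunit genes falling. Without single libraries the count called was 36, 22 and 17 (replicates 1, 2 and 3 of day 21) and 15, 14 and 13 (replicates 1, 2 and 3 of day 6). Mrpl58 fell to 51.9, 52.7 and 46.7 CPM (−0.93, SE 0.10, adjusted p = 0.00186), Mrpl42 to 93.7, 102 and 105 CPM (−0.82, SE 0.08, adjusted p = 0.00148) and Mrpl2 to 71.3, 91.3 and 91.9 CPM (−0.70, SE 0.13, adjusted p = 0.00855). Mrps25 was the gene that rose (0.37, adjusted p = 0.0319), beside its antisense partner Nr2c2 (0.61, adjusted p = 0.0055); Mrps25 lost this call in 6 of the 13 alternative analyses. After 3 administrations 13 members fell and 0 rose, where 10.8% of all genes fell and 8.68% rose, and the median was −0.20. Mrpl58 fell to 50.6, 47.5 and 39.5 CPM (−0.88, adjusted p = 0.00348), Mrpl42 to 104, 111 and 83.9 CPM (−0.81, adjusted p = 0.00572) and Mrps10 from 105, 104 and 102 to 68.0, 62.1 and 62.5 CPM (−0.68, adjusted p = 0.00231). The count was 9, 9 and 7 without replicate 1, 2 or 3 of day 21 and 6, 7 and 8 without replicate 1, 2 or 3 of day 6. These comparisons share their day 6 libraries with those against PBS. With library size alone the all-gene median moved from 0.01 to 0.12 here, the members' median was −0.09 and 8 members fell.

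**Figure D4:**
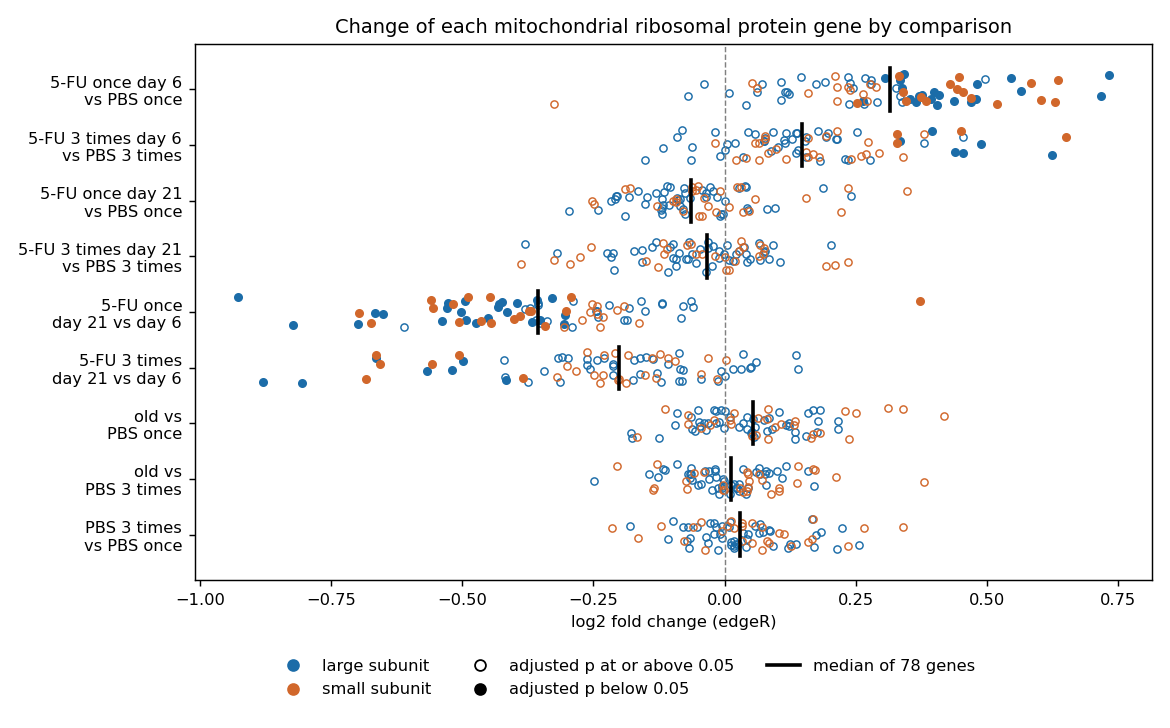
Log2 fold change (horizontal axis) of each of the 78 members in 9 comparisons (rows). Filled points have an adjusted p below 0.05 in edgeR's test, colours give the subunit by symbol, and black lines are medians over the 78 genes. The clouds lie right of 0 for 5-FU against PBS on day 6, left of 0 for day 21 against day 6, and around 0 elsewhere.

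Old HSCs and HSCs after repeated PBS had higher summed levels than those after PBS once, while no single member passed the test. The sums were 2880 to 3160 CPM in old HSCs and 2862 to 3030 CPM in PBS 3 times, above the 2788 to 2852 CPM of PBS once, and the range of old HSCs overlapped that of PBS 3 times. This was not particular to the members. Nuclear-encoded respiratory chain and ATP synthase subunits summed to 4293–4631 CPM in PBS once, 4791–5031 CPM in PBS 3 times and 4687–5176 CPM in old HSCs. Mean sums of mitoribosome assembly genes and of mitochondrial translation factors were not higher in either group than in PBS once. Against PBS once, 0 of 78 members passed edgeR's test (6 at an unadjusted p under 0.05, and 3 called higher by DESeq2), where 1.44% of all genes were higher and 0.443% lower, and the median was 0.05. The median was 0.13 without replicate 2 of the old group, 0.0096 and 0.01 without replicates 1 and 3, 0.02 without replicate 2 of PBS once, and 0.02 with library size alone. The 6 genes were Mrps23, Mrps12, Mrps36, Mrps14, Mrps17 and Mrps33, all higher in old HSCs, with log2 fold changes between 0.23 and 0.42. Their adjusted p lay between 0.136 and 0.343. The share of all genes at an unadjusted p under 0.05 is not given here, so no pattern by subunit is read from these genes. Against PBS 3 times, 0 passed (1 at an unadjusted p under 0.05, Mrps36 at 0.38, adjusted p = 0.257, and 0 called by DESeq2, with 2 at an unadjusted p under 0.05), where 0.553% of all genes were higher and 0.444% lower. PBS 3 times against PBS once gave 0 of 78 (3 at an unadjusted p under 0.05, and 1 called higher by DESeq2), where 0.00781% of all genes were higher and 0.00781% lower. Mrps23, chosen here after its values were seen, was lower in PBS once than in some other groups. It was at 116, 124 and 112 CPM in PBS once, at 152, 150 and 144 CPM in PBS 3 times, at 150, 144 and 156 CPM in 5-FU once on day 21 and at 157, 134 and 157 CPM in old HSCs. The PBS once libraries were below all of these. This did not extend to 5-FU 3 times on day 21, where Mrps23 was at 84.8 ± 12.7 CPM per kb (SD, n = 3), against 83.8 ± 4.45 in PBS once. The 3 comparisons of the groups listed with PBS once share its libraries, and none passed the adjusted test (adjusted p = 0.167, 0.13 and 0.136). The column names of the PBS once and 5-FU once libraries of day 6 carry a suffix, of unstated meaning, that the other libraries lack, so the group and whatever the suffix marks cannot be told apart in these comparisons.

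The balance between subunits shifted little. The ratio of summed large to summed small subunit CPM was 1.13 ± 0.0211 (SD, n = 3) in PBS once and 1.14 ± 0.00464 in 5-FU once on day 6, and their ranges overlapped. It was 1.09 ± 0.0093 in PBS 3 times and 1.13 ± 0.00872 in 5-FU 3 times on day 6, without overlap. The lowest values were 1.05 ± 0.0198 in 5-FU once on day 21 and 1.04 ± 0.00942 in old HSCs, both below each library of the PBS groups and of the day 6 groups of 5-FU. In 5-FU 3 times on day 21 the libraries spread from 1.04 to 1.13. As Mrps17 alone supplies 316 CPM, the ratio was also computed without it, a choice made after seeing the data. It was then 1.45 ± 0.0144 in PBS once, 1.44 ± 0.0105 and 1.33 ± 0.0213 in 5-FU once on day 6 and day 21, 1.39 ± 0.00397, 1.41 ± 0.00948 and 1.38 ± 0.0865 in PBS 3 times and 5-FU 3 times on day 6 and day 21, and 1.35 ± 0.0215 in old HSCs. The order of 5-FU once on day 21 and old HSCs against both PBS groups and the day 6 groups of 5-FU was kept. No test was made on these sums.

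**Figure D5:**
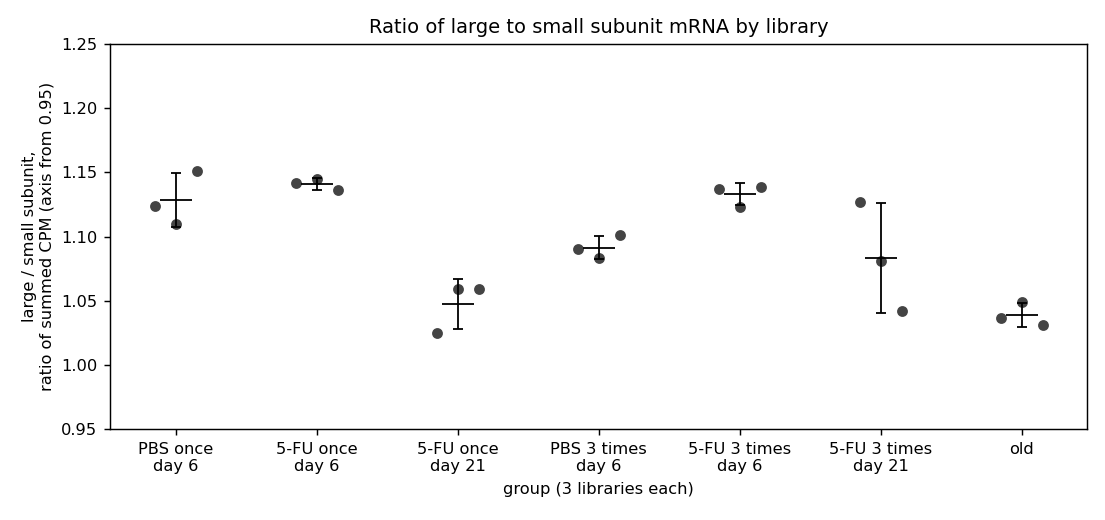
Ratio of the summed CPM of large subunit genes to that of small subunit genes in each library (vertical axis, which starts at 0.95), by group. Points are libraries, marks are means and bars are SD of 3 libraries. 5-FU once on day 21 and old HSCs lie between 1.03 and 1.06, below both PBS groups.

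Other genes of mitochondrial translation were read from lists beside the members. Of all genes tested, 11.5% rose and 10.6% fell after 1 administration, and 9.84% rose and 8.3% fell after 3. Counts near these shares are not read as results about a list. Of 5 mitoribosome proteins with other symbols, 3 rose after 1 administration: Dap3 (0.40), Ptcd3 (0.38) and Gadd45gip1 (0.31). Ptcd3 also rose after 3 (0.37). Of 18 translation factors and related proteins, 4 rose and 1 fell after 1 administration. The rises were the elongation factors Tufm (0.40), Tsfm (0.49) and Gfm1 (0.49) and the RNA-binding protein Slirp (0.50), and the fall was Gfm2 (−0.57), which acts in ribosome recycling. After 3 administrations 4 rose, Lrpprc (0.57), which stabilises mitochondrial mRNA, together with Gfm1 (0.49), Tufm (0.42) and Tsfm (0.35). Of 27 ribosome assembly genes 2 rose in each comparison, Rcc1l (0.52 and 0.45) in both, with Fastkd2 (0.35) after 1 and Trub2 (0.44) after 3 administrations. The summed level of the 27 was 857 ± 58.7 CPM after PBS once and 853 ± 45.4 CPM after 5-FU once, and 835 ± 24.8 and 908 ± 3.90 CPM after 3 administrations. Of 20 mitochondrial tRNA synthetase and related genes, 1 rose after 1 administration (Iars2, 0.27) and 3 after 3 (Qrsl1, 0.56, Tars2, 0.43, and Sars2, 0.43). Of 17 genes for transcription and replication of mitochondrial DNA, 1 rose in each, the topoisomerase Top1mt (0.40 and 0.53). Of 11 known regulators of such genes, Pprc1, a coactivator, rose in both (0.30 and 0.68) and Yy1 rose after 3 administrations (0.29). Among these lists, the share that rose was below that of the members after 1 administration in all but the 5 proteins with other symbols.

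Genes whose products work beside the mitoribosome rose on day 6 too. Of 75 nuclear-encoded subunits of the respiratory chain and ATP synthase, 32 rose after 1 administration and 15 after 3, and none fell (medians 0.31 and 0.11). Among all genes tested, 11.5% rose after 1 administration and 9.84% after 3. Uqcrq (0.88), Atp5g3 (0.87), Uqcr10 (0.83) and Atp5j (0.74) led after 1 administration, and Atp5g3 (0.67), Atp5g1 (0.55), Uqcrq (0.51) and Atp5d (0.50) after 3. Of 21 import and chaperone genes 11 and 7 rose, among them the import pore Tomm40 (0.69 and 0.65) and the chaperonin Hspd1 (0.60 and 0.59). The cytosolic ribosomal protein genes differed from these lists in their counts: 17 of 79 tested rose after 1 administration (median 0.12), and after 3 administrations 2 rose and 2 fell (median −0.07, with 62 of 79 below 0). By day 21, none of the 75 respiratory chain genes passed the test against either PBS group, where at most 0.15% of all genes were called in either direction.

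Marker genes of other states and cells moved on day 6 too. Their counts stand beside 11.5% of all genes up and 10.6% down after 1 administration, and 9.84% and 8.3% after 3. The summed level of 18 proliferation markers was 1971 to 2039 CPM after PBS once and 2656 to 2883 CPM after 5-FU once, and 1725 to 2054 and 2947 to 3444 CPM after 3 administrations. Of the 18, 11 rose after 1 administration and 17 after 3. The summed level of 12 HSC markers went from 4586–5027 to 3740–3884 CPM after 1 administration, with 3 rises and 3 falls, Kit among the falls (−0.86) and Ly6a and Procr among the rises (1.01 and 0.33). After 3 administrations it went from 4492–4861 to 3291–3384 CPM, with 1 rise and 6 falls. Myeloid markers (14 listed, 12 tested) fell in sum from 103–156 to 62.1–77.3 CPM after 1 administration, with 6 falls, and from 93.5–127 to 54.4–78.9 CPM after 3 (11 tested), with 2 falls. Of the 14, 1 was at 0 in all libraries of PBS once and 1 in all of 5-FU once. Erythroid markers rose in sum from 29.8–39.6 to 105–115 CPM and from 31.2–48.0 to 48.8–65.3 CPM, with the haemoglobin genes Hbb-bs (2.85 and 1.51) and Hbb-bt (2.69 and 1.44) in front. Megakaryocyte markers (7) went from 193–236 to 111–121 CPM, with 5 falls, and from 221–227 to 160–179 CPM, with 3 falls. Lymphoid markers (9 found) stayed between 33.9 and 54.3 CPM in these groups, and 5 of them were at 0 in all libraries of 5-FU once. The part of these changes in the result for the members was not tested, and in bulk samples fewer cells of a type and less RNA per cell cannot be told apart.

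The 78 genes lie on 17 chromosomes in GENCODE vM21 (GRCm38), with 11 of them on chromosome 11. Mrpl42 spans chr10:95480805-95501940 (minus strand), Mrpl58 chr11:115403752-115412674 (plus strand), Mrps22 chr9:98588730-98601660 (minus strand) and Mrpl2 chr17:46646229-46650139 (plus strand). A start site of a protein-coding gene on the opposite strand lies within 1000 bp upstream of 18 members (23.1%), against 10.2% of the 12453 protein-coding genes tested on day 6 after 1 administration. Of these 18, 8 rose after 1 administration and 1 after 3, and of the other 60, 29 and 9 rose. RefSeq promoters (GRCm38.p6, from 250 bases before to 50 after the start site, the first one listed per gene) matched 69 members by symbol, and not Mrpl13, Mrpl15, Mrpl19, Mrpl38, Mrpl4, Mrpl54, Mrps28, Mrps34 and Mrps35. They were searched on both strands for letters of factors known for mitochondrial genes. GCATGCGC (NRF1) was in 11.6% of members against 5.46% of 10328 promoters of tested genes, CCGGAAGT (ETS family) in 15.9% against 8.31%, and AAGATGGC (YY1) in 17.4% against 4.64%. CACGTG (E-box, 7.25% against 10.2%), TGACGTCA (CRE, 2.9% against 3.2%) and CCAAT (NF-Y, 39.1% against 39.3%) were in shares at or below those of tested genes. Of the 12 members with the YY1 letters, 8 hold them on the gene's own strand between bases 12 and 44 past the start site (11.6%, against 2.23% of tested genes with these letters past the start). These letters contain ATG, and a match there can lie over a start codon. The median GC content was 58.3% in members and 60.7% in tested genes.

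The calls were also counted by letters, as a description. After 1 administration, 2 of 8 members with the NRF1 letters rose, against 31 of 61 without. The counts were 4 of 11 against 29 of 58 for ETS and 6 of 12 against 27 of 57 for YY1. They were 16 of 27 against 17 of 42 for CCAAT, 3 of 5 against 30 of 64 for the E-box and 0 of 2 against 33 of 67 for CRE. To show the promoters of genes that rose in both comparisons, the 250 bases upstream of the RefSeq start site are given for 4 of them, 5′ to 3′ on the strand of the gene, with matches to the letters above in capitals. They are at chr10:95501950-95502199 (minus strand, Mrpl42), chr11:115403502-115403751 (plus strand, Mrpl58), chr9:98601680-98601929 (minus strand, Mrps22) and chr17:46645971-46646220 (plus strand, Mrpl2).
Mrpl42: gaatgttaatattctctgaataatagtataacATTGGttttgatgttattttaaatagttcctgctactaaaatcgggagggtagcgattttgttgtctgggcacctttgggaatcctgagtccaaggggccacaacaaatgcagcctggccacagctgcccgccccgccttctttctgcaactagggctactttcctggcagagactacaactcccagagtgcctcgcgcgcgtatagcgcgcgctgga
Mrpl58: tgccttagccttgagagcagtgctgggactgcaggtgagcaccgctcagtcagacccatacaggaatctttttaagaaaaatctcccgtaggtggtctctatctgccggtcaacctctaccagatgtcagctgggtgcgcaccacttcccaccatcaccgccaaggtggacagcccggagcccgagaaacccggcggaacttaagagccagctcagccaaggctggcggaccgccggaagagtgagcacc
Mrps22: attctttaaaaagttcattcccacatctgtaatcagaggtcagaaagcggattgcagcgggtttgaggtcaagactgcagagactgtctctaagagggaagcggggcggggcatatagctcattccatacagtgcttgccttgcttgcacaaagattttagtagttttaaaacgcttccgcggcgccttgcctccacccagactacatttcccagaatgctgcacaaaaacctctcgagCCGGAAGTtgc
Mrpl2: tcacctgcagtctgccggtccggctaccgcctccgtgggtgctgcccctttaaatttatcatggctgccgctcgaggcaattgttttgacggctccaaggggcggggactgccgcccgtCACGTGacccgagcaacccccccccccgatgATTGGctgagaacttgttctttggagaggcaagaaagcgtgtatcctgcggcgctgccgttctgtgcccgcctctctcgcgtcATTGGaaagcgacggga
The capitals mark a reverse CCAAT at −218 to −214 in Mrpl42, the ETS letters at −11 to −4 in Mrps22, and in Mrpl2 an E-box at −131 to −126 and reverse CCAAT at −100 to −96 and −17 to −13. Mrpl58, which rose almost as much as Mrpl42 after 1 administration, holds none of these letters in this window. The same is true of Mrpl21, Mrpl55, Mrps21 and Mrps23, which also rose in both comparisons and are not printed. Mrps36, not printed either, holds a reverse CCAAT there, and Mrpl15 had no matched promoter. The printed promoters therefore do not give the share of these genes with a match. Mrpl42 also has the YY1 letters at 28 to 35 past the start. A match is a description of the letters and not of binding.

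For some members the counted reads may come from elsewhere. In GENCODE vM21, 20 of 78 have at least 1 other gene or pseudogene with a stretch of at least 150 bp at 95% identity or more. Genes other than pseudogenes were left out where the stretch covered only a small part of the member's transcript. Genes that overlap the member's own locus were left out too. The longest stretch, 2070 bp, was that of Mrps25 in Gm42933. Mrps36 has 4 such copies, and Mrpl42, Mrps21 and Mrpl21 have 1 each, so their values could include or lose reads that align to both. Exons on the same strand are shared with another gene over 88.0% of the exonic bases of Mrpl53, 37.0% of Mrps34, 23.2% of Mrps18c, 19.9% of Mrps6 and 15.4% of Mrps24. Exons of the opposite strand are overlapped by 28 members. For Mrps34 this covers 63.4% of exonic bases, opposite Mapk8ip3, which fell in edgeR's test after 1 administration (−0.53, adjusted p = 0.00943). How the counting treated such reads is not given in the sources used here.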

How the data were processed

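The data are RNA sequencing libraries of sorted mouse HSCs, 21 in number. Sample titles gave the 7 groups of 3. Libraries were made with a SMART-Seq v4 kit and Nextera XT and read as single ends of 75 bases. The authors aligned the reads with TopHat2 2.0.13 to mm10 and quantified with Cuffdiff of Cufflinks 2.2.1; they deposited raw counts per gene symbol, as whole numbers, and how these were made is not stated. The members, lists and tests were chosen with earlier results of these data known.

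The deposited counts entered edgeR 4.0.16 (R 4.3.3). Low genes were removed with filterByExpr separately for each pair of groups, and the rest were scaled by TMM and tested with glmQLFit and glmQLFTest, with Benjamini-Hochberg adjustment over all genes kept (threshold 0.05). CPM use TMM factors over all 21 libraries. P-values weigh the difference between groups against the spread of libraries within groups, which hold 3 each. This spread is estimated over all libraries of a fit and moderated across genes. The interaction used 12 libraries. Steps were tested on simulated counts. Named members are those called without overlap between groups, up to 8 rises and 4 falls in each day 6 comparison of 5-FU with PBS and up to 3 each way elsewhere (5 for the interaction), the 5 highest and lowest per kb, and a list of members with known roles. From each other list, up to 4 called genes with the largest change were named; further names were chosen after seeing values. The lists of assembly, translation, regulator and import genes and of markers were written by hand. Alternatives were RLE factors, library size alone, DESeq2 1.42.0, 2 other filters (1 count in total, 10 counts in every library), a block for replicate number, a common fit of all 21 libraries, and leaving out each library. Positions and transcripts come from GENCODE vM21 (GRCm38, the build of mm10), and promoters from RefSeq GRCm38.p6.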

Additional observations from a re-analysis of the deposited data

How the results depend on the processing

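For 5-FU once against PBS once, 37 members were called; the count was 23 with library size alone and 20 with the replicate number as a block, and 15 to 22 when a library was left out. For 5-FU 3 times against PBS 3 times, 10 became 2 with library size alone, 3 with the replicate block, 17 with all 21 libraries in a single fit, and 1 to 6 when a library was left out. For day 21 against day 6, 42 became 13 to 36 after 1 administration, and 13 became 8 with library size alone, 25 with all 21 libraries and 6 to 9 after 3. Where edgeR called 0, DESeq2 called 1 (5-FU once on day 21 against PBS once), 2 (5-FU 3 times on day 21), 3 (old against PBS once), 1 (PBS 3 times against PBS once) and 1 (interaction). All genes called in the replicate block fits of the day 6 comparisons (20 and 3) were among those called without it, and the block changed no other count by more than 1.5 times. The replicate numbers were not treated as pairs, as same-numbered libraries had correlations of their deviations between −0.0465 and 0.0607 in all comparisons. The cause of these changes was not tested, beyond the fewer libraries in a fit that leaves out 1.

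Among the members named for a day 6 comparison, signs changed only in those that did not pass the test there. With library size alone after 3 administrations, Mrpl10 was at −0.023, Mrps7 at −0.018, Mrps2 at −0.0034, Mrps16 at −0.041, Mrps34 at −0.077 and Mrps18c at −0.023; with all 21 libraries in a fit, Mrpl44 was at 0.0029 and Mrps5 at 0.0033. When a library was left out, the values after 1 administration ranged from −0.092 to 0.030 for Mrpl44 and from −0.053 to 0.11 for Mrps2. After 3 administrations they ranged from −0.098 to 0.089 for Mrpl44, from −0.091 to 0.056 for Mrps5, from −0.0021 to 0.11 for Mrps16, from −0.030 to 0.089 for Mrps34 and from −0.14 to 9e-04 for Mrpl41.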
